A study of Neotoma stephensi and Rattus norvegicus with 6 samples.

Results

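The genes of the cell-cell junctions were examined in the foregut of *Neotoma stephensi* (Stephens' woodrat) and *Rattus norvegicus* (lab rat). A gene was included if its symbol began with Cldn, Gja, Gjb, Gjc or Tjp followed by a digit, or if it was one of 15 further junction genes (Ocln, Marveld2, Marveld3, F11r, Jam2, Jam3, Cgn, Cxadr, Cdh1, Cdh3, Ctnna1, Ctnnb1, Ctnnd1, Panx1 and Epcam). Of the 15481 genes in the files, 39 genes of the rule are described: 12 claudins, 10 connexins, 4 genes of the junctional adhesion molecule group (Cxadr included), 3 plaque genes, 3 genes of occludin-type membrane proteins, 5 genes of the adherens junction, Panx1 and Epcam. Abundance is given as CPM, the read count scaled to the size of the library. Of the 39 genes, 31 reached 1 CPM in 3 or more animals and were tested. Every gene in the files has woodrat reads, whereas 809 have none in lab rats, and other claudins and connexins are not analysed here.

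The tissue was the fornix ventricularis of the stomach, the nonglandular upper chamber, sampled from 3 female woodrats and 3 female Sprague Dawley lab rats. The woodrats were caught in the wild and fed juniper foliage until dissection, while the lab rats were bought from a breeder and kept on rat chow. The labels call all animals virgin, although per the study it could not be known for wild-caught animals, and no ages are given. Species, origin, diet and the microbes of the chamber differ together between the groups and cannot be told apart.

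Tight junctions seal the space between epithelial cells. Their strands are built of claudins and occludin, with junctional adhesion molecules beside them and the ZO proteins and cingulin underneath, which tie them to actin. Gap junctions are channels of connexins that let small molecules pass from cell to cell, and adherens junctions hold cells together through cadherins bound to catenins. In a stratified squamous epithelium such as that of the rodent forestomach, the adherens junction is found throughout the living layers and the tight junction forms near the surface, and several connexins mark particular layers.

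Each animal had between 5439642 and 7932637 counted reads, so that 3 reads corresponded to between 0.355 and 0.586 CPM after TMM normalization, and values below this are at the limit of detection. The woodrats differed strongly from one another in epithelial content. A list of 29 epithelial genes outside the junction set, among them Krt5 and Trp63, summed to 7050, 14712 and 22646 CPM in woodrats 1, 2 and 3 and to between 13134 and 15810 CPM in the lab rats. A list of 16 smooth muscle genes summed to 171021, 84429 and 57086 CPM in the same woodrats, against 17079 to 31887 CPM in the lab rats. Trp63, the master regulator of stratified epithelium, had 3.32, 11.4 and 100.6 CPM in woodrats 1, 2 and 3. Woodrat 1 thus stood apart with the least epithelial and the most smooth muscle RNA. Lab rat 3 stood apart in another way: 7 of the 31 tested junction genes (Cdh1, Cgn, Ctnnd1, Gja1, Marveld2, Marveld3 and Tjp1) and 8 of the 29 epithelial genes had a CPM there below 0.5 times that of each of the other lab rats, as did 13.9% of all tested genes. In bulk tissue, fewer epithelial cells and less RNA per epithelial cell cannot be told apart. Results are given with TMM normalization, and also scaled to the epithelial list, where the mean log2 CPM of its 29 genes sets the size of each library. That mean was lowest in woodrat 1 (5.03), followed by woodrat 2 (6.72) and lab rat 3 (7.01). Lab rat 2 (7.69), lab rat 1 (7.77) and woodrat 3 (7.81) lay higher. The mean and the sum thus ranked lab rat 3 differently: it had the lowest mean but the highest sum (15810 CPM) of its species. The epithelial scaling moved the median log2 fold change of all tested genes by 1.24 toward woodrats, and its fold changes are read against that shift. The list itself was not level between the species. With TMM normalization 2 of its 29 genes, Elf3 and St14, were lower in woodrats at a false discovery rate below 0.01 (6.9%, against 9.71% of all tested genes). None was higher, and the median log2 fold change of the list, woodrat over lab rat, was -0.60.

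Among the woodrats, most junction genes were lowest and highest in the same animals as the epithelial list. Their median SD of log2 CPM among the 3 woodrats was 1.04, against 0.37 over all 12603 tested genes, while among the lab rats it was 0.31 against 0.37. Woodrat 1 was the lowest woodrat for 25 of the 31 genes (80.6% against 39.1% of all tested genes), and woodrat 3 the highest for 26 (83.9% against 37.9%). The median ratio of woodrat 3 to woodrat 1 was 4.04 for the junction genes and 1.00 for all tested genes. The exceptions, with their highest woodrat value in woodrat 1, were Cldn5, Ctnna1, Gjc1 and Jam3.

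**Figure D1:**
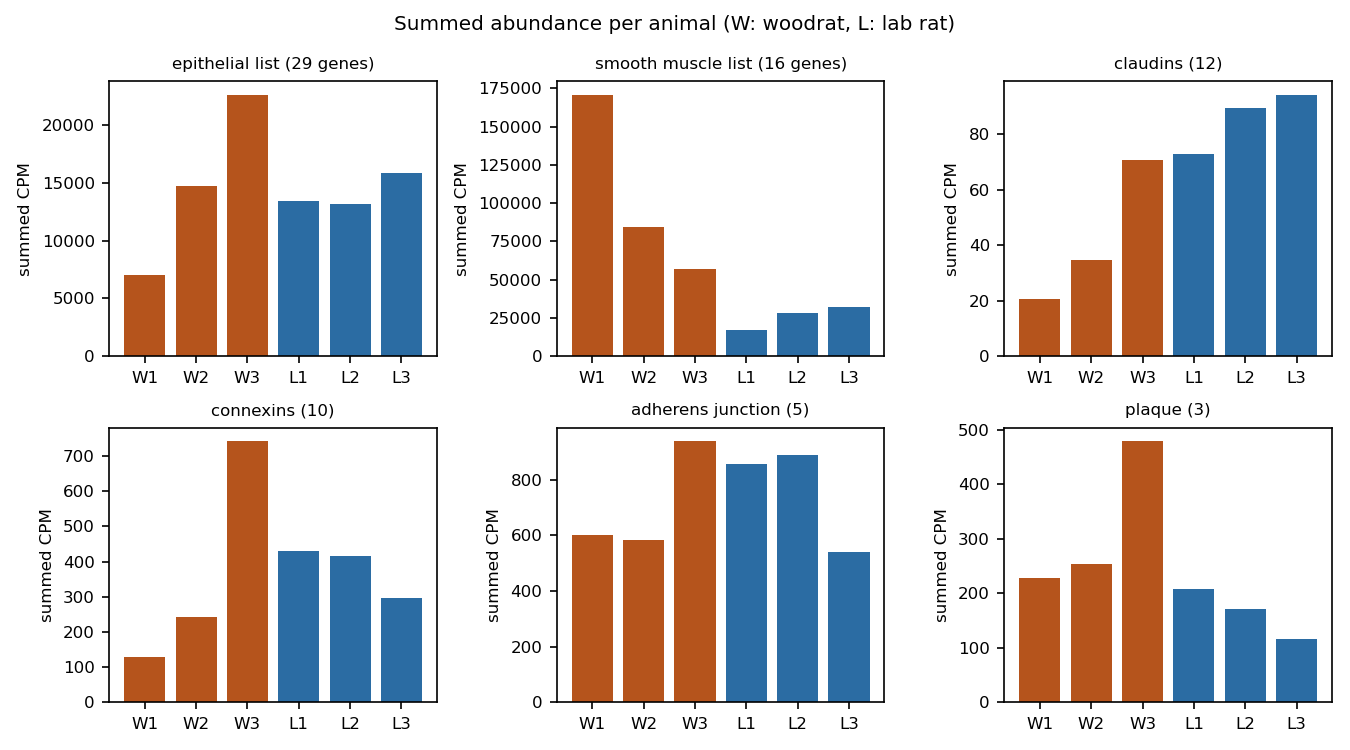
Summed TMM-normalized CPM per animal for 2 marker lists and 4 groups of junction genes, with the number of genes summed in brackets; bars are single animals (W1 to W3 woodrats, L1 to L3 lab rats) and each panel has its own scale from 0. Woodrat 1 has the lowest epithelial sum (7050 CPM) and claudin sum (20.7 CPM) and the highest smooth muscle sum (171021 CPM), and woodrat 3 has 22646, 70.6 and 57086 CPM.

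Woodrats were compared with lab rats to find which genes differ in abundance between a foregut that houses a dense microbial community and one that does not. At a false discovery rate (FDR) below 0.01, 3 of the 31 tested junction genes differed (9.68%), against 20.0% of all 12603 tested genes (edgeR quasi-likelihood F-test with Benjamini-Hochberg adjustment over all tested genes). Epcam and Cldn3 were less abundant in woodrats (2 of 31, with 9.71% of all tested genes called in that direction), and Jam3 was more abundant (1 of 31, with 10.3%). At an FDR below 0.05, 8 junction genes passed (25.8%), against 39.9% of all tested genes. The median log2 fold change, woodrat over lab rat, was -0.37 for the junction genes and 0.03 for all tested genes. The animals of the 2 species did not overlap for 12 of the 31 genes (38.7%), against 56.2% of all tested genes. Without woodrat 1 and lab rat 3 together, 2 junction genes passed the threshold (Epcam and Cxadr) where 13.5% of all tested genes did, and without woodrat 3 it was 6, where 20.8% did. Without woodrat 1 it was 3 (Epcam, Cxadr and Gjb6), where 14.9% did. Leaving out woodrat 2 or any lab rat left Epcam as the only call, with 7.13% of all tested genes called without woodrat 2 and 7.43%, 8.33% and 10.4% without lab rats 1, 2 and 3.

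**Figure D2:**
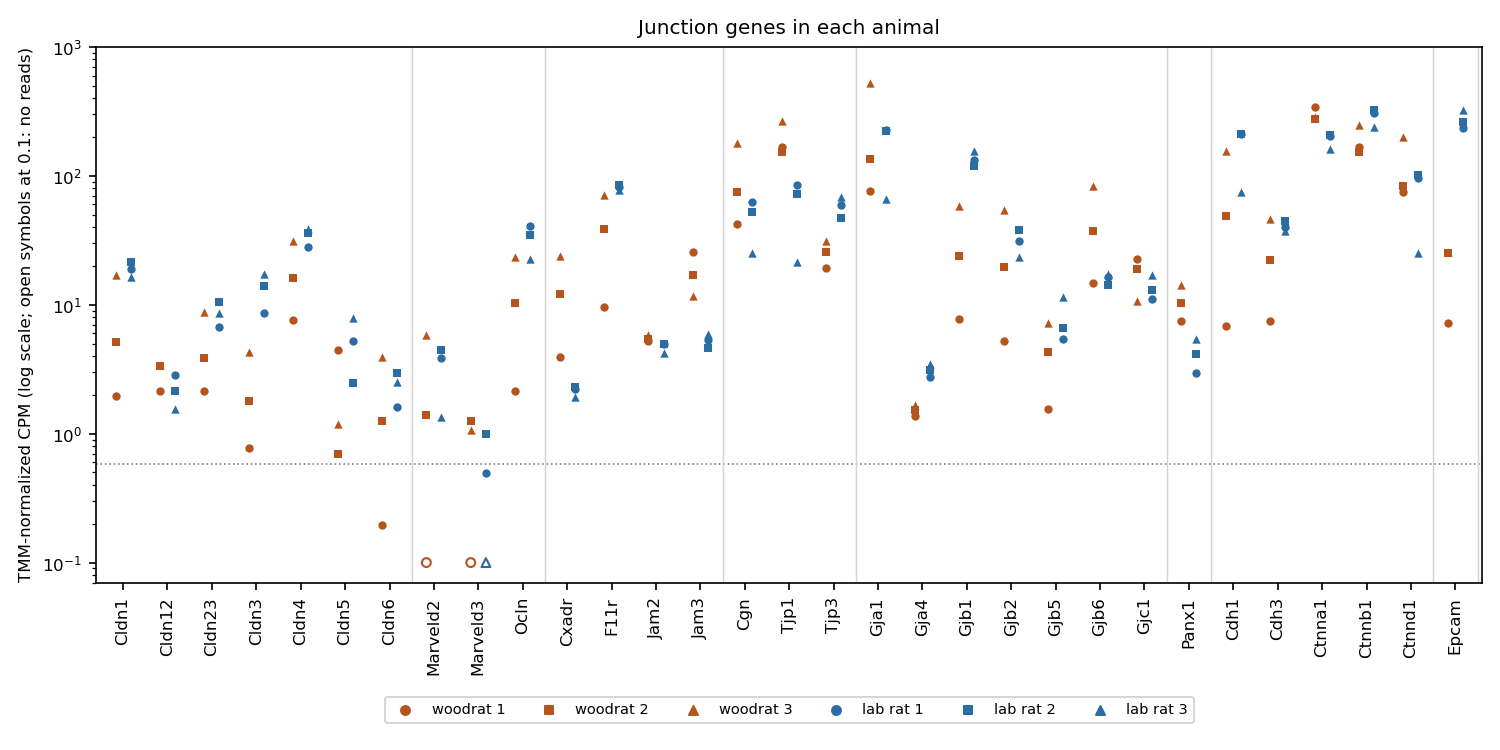
TMM-normalized CPM (log axis) of the 31 tested junction genes in each of the 6 animals, grouped from left to right as claudins, occludin-type proteins, adhesion molecules, plaque proteins, connexins, Panx1, adherens junction and Epcam; the dotted line marks 0.586 CPM, the highest level of 3 reads in any library. For most genes the woodrat points are spread widely with woodrat 3 on top, as for Gjb2 from 5.27 to 54.5 CPM, whereas for Epcam all woodrats lie at or below 25.8 CPM and all lab rats at or above 237 CPM.

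Epcam (ENSMUSG00000045394.8), an adhesion molecule of simple epithelia that binds claudins, had 7.23, 25.4 and 25.8 CPM in woodrats 1, 2 and 3 and 237, 263 and 327 CPM in lab rats 1, 2 and 3. The highest woodrat lay far below the lowest lab rat. The difference was 14.0-fold, or -3.81 as a log2 fold change, where the standard error (SE) was 0.48 and the FDR 0.00104. It was the one junction gene past the threshold under every alternative tried, with log2 fold changes from -4.09 to -3.06. Scaled to the epithelial list, it was -3.06 (SE 0.94, FDR = 0.00856).

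Among the claudins, 7 of 12 were tested and 6 of those had a negative log2 fold change, of which Cldn3 passed the threshold. Cldn3, a sealing claudin of simple epithelia, had 0.78, 1.80 and 4.26 CPM in woodrats and 8.69, 13.9 and 17.3 CPM in lab rats. Every woodrat lay below every lab rat, with a log2 fold change of -2.47 (SE 0.56, FDR = 0.00966). This call sat close to the threshold. It was lost without woodrat 1, woodrat 2 or any of the lab rats (FDR from 0.0155 to 0.0383), under the epithelial scaling (log2 fold change -1.97, FDR = 0.0874) and in 4 of the other alternatives.

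Cldn4, a sealing claudin found in the upper layers of squamous epithelia, had 7.62, 16.1 and 31.4 CPM in woodrats and 28.0, 35.9 and 38.7 CPM in lab rats. Its values overlapped through woodrat 3 (log2 fold change -0.88, SE 0.46, FDR = 0.153). Cldn1, without which the barrier of the epidermis fails, had 1.95, 5.14 and 17.1 CPM in woodrats and 19.0, 21.3 and 16.4 CPM in lab rats. Woodrat 3 lay within the range of the lab rats while woodrats 1 and 2 lay below it (log2 fold change -1.20, FDR = 0.159). Without woodrat 3 the log2 fold change of Cldn1 was -2.37 (FDR = 0.00464). Without woodrat 1 it was -0.76 (FDR = 0.253), and without woodrat 2 it was -1.01 (FDR = 0.324). Cldn23, Cldn12 and Cldn6 had log2 fold changes of -0.77, 0.44 and -0.31 and FDR values from 0.247 to 0.764. Cldn5, the claudin of blood vessel endothelium, had 4.49, 0.69 and 1.18 CPM in woodrats and 5.21, 2.48 and 7.9 CPM in lab rats (FDR = 0.160). The 14 endothelial marker genes summed to 101 to 167 CPM in woodrats and 228 to 258 CPM in lab rats. Of the 14, 3 were called lower in woodrats (21.4%, against 9.71% of all tested genes). The median log2 fold change of the 14 was -0.95, but members differed in direction. Esam had -1.63, Vwf -0.02, Cdh5 0.46 and Robo4 0.63. The part of vessel content in the values of Cldn5 was not tested. The other 5 claudins (Cldn2, Cldn8, Cldn11, Cldn15 and Cldn19) did not reach the filter. Of these, Cldn11 had 15 reads in woodrat 2 and at most 1 in any other animal, and Cldn19 had 6 reads in woodrat 1 and none elsewhere.

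All 3 occludin-type genes were tested and none was past the threshold. Ocln, which encodes occludin, had 2.15, 10.4 and 23.7 CPM in woodrats and 40.8, 34.6 and 22.5 CPM in lab rats. Woodrat 3 and lab rat 3 overlapped (log2 fold change -1.41, SE 0.66, FDR = 0.118). Marveld2, whose product tricellulin seals the points where 3 cells meet, had no reads in woodrat 1 and 1.39 and 5.80 CPM in the other woodrats, against 1.35 to 4.47 CPM in lab rats. Marveld3 had at most 9 reads in any animal and none in woodrat 1 or lab rat 3.

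The junctional adhesion molecules, cell surface proteins of the immunoglobulin family, differed from one another in direction. Jam3 had 25.6, 16.9 and 11.7 CPM in woodrats and 5.34, 4.63 and 5.97 CPM in lab rats. All woodrats lay above all lab rats, with a 3.38-fold difference (log2 fold change 1.76, SE 0.36, FDR = 0.00657). Unlike most junction genes, it was highest in woodrat 1, the animal with the highest smooth muscle sum, and lowest among woodrats in woodrat 3. The smooth muscle list had 6 of its 16 genes called higher and none lower in woodrats (37.5%, against 10.3% of all tested genes called higher and 9.71% lower), and its part in the values of Jam3 was not tested. Without woodrat 1 the log2 fold change of Jam3 was 1.43 (FDR = 0.0156), and the call was also lost without woodrat 2 or any of the lab rats (FDR from 0.0192 to 0.0306) and without woodrat 1 and lab rat 3 together (FDR = 0.0177).

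Cxadr, the receptor for coxsackievirus and adenovirus, had 3.91, 12.2 and 24.0 CPM in woodrats and 2.23, 2.32 and 1.93 CPM in lab rats. The groups did not overlap, and the log2 fold change of 2.63 (SE 0.62) had an FDR of 0.0112, just outside the threshold. Scaled to the epithelial list, Cxadr passed it with a log2 fold change of 3.22 (FDR = 0.00541), of which 1.24 is the shift of the median gene. It also passed without woodrat 1 (3.06, FDR = 0.00209). Of 15 alternatives, 5 put Cxadr past the threshold. Without woodrat 2, woodrat 3 or any of the lab rats it did not pass (FDR from 0.0212 to 0.0493). F11r, which encodes JAM-A, the main form in epithelia, had 9.57, 38.9 and 71.7 CPM in woodrats and 82.6, 85.7 and 77.6 CPM in lab rats. The species did not overlap, but the spread among woodrats left an FDR of 0.177 (log2 fold change -1.03). Jam2 lay between 4.24 and 5.80 CPM in all 6 animals (log2 fold change 0.22, FDR = 0.609).

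Among the plaque genes, Tjp1 and Tjp3 had fold changes of opposite sign. Tjp1, encoding ZO-1, had 167, 153 and 268 CPM in woodrats and 85.6, 72.8 and 21.4 CPM in lab rats. Tjp3, encoding ZO-3, a form restricted to epithelia, had 19.1, 25.8 and 31.4 CPM in woodrats and 59.1, 47.1 and 69.0 CPM in lab rats. Neither set of values overlapped between species, and neither passed the threshold: Tjp1 had a log2 fold change of 1.71 (SE 0.49, FDR = 0.0236) and Tjp3 one of -1.19 (SE 0.27, FDR = 0.0101). Under DESeq2, which called 31.1% of all tested genes, both were past it. Scaled to the epithelial list, Tjp3 had a log2 fold change of -0.13 (FDR = 0.916) and Tjp1 one of 2.92 (FDR = 0.0129). The median of all tested genes under that scaling was 1.27, above the value of Tjp3 and below that of Tjp1. Tjp1 was higher by 1.31 on the log2 scale without lab rat 3, where its reads were fewest. Cgn (cingulin, which links the ZO proteins to the cytoskeleton) was spread among woodrats from 42.0 to 179 CPM and overlapped the lab rats (FDR = 0.138).

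Of the 10 connexins described, 7 were tested and none was past the threshold. Among the connexins that epithelia make, Gjb6 (connexin 30, of the upper layers) had 14.8, 37.3 and 83.0 CPM in woodrats and 16.5, 14.2 and 17.3 CPM in lab rats. Woodrats 2 and 3 lay above all lab rats while woodrat 1 lay among them, for a log2 fold change of 1.5 (SE 0.53; FDR = 0.0526). Without woodrat 1 it was 1.91 (FDR = 0.00661), and without woodrat 3 it was 0.71 (FDR = 0.187). Gjb2 (connexin 26), the usual partner of connexin 30 in mixed channels, had 5.27, 19.6 and 54.5 CPM in woodrats and 31.1, 37.9 and 23.7 CPM in lab rats. The woodrat values spanned those of the lab rats (log2 fold change -0.21, FDR = 0.817). Gjb1 (connexin 32, best known from liver and glands) had 7.81, 24.0 and 58.8 CPM in woodrats and 132, 119 and 155 CPM in lab rats. No woodrat reached the level of a lab rat, and the log2 fold change of -2.15 (SE 0.59) had an FDR of 0.0211. Without woodrat 3 it was -3.07 (FDR = 0.00202). Gjb1 passed the threshold in 2 of 16 alternatives, and its FDR was 0.0701 without woodrat 2 and 0.0706 without lab rat 3.

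Gja1 (connexin 43), the common connexin of basal keratinocytes that smooth muscle also makes, had 76.8, 136 and 525 CPM in woodrats and 228, 221 and 66.5 CPM in lab rats. It was widely spread in both species and the species overlapped in part (log2 fold change 0.52, SE 0.71, FDR = 0.589), and without woodrat 3 its log2 fold change was -0.69. Gjb5, a connexin of differentiating keratinocytes, had a log2 fold change of -0.81 (FDR = 0.260). Gjc1 (connexin 45, of smooth muscle and pacemaker cells) had 22.5, 19.0 and 10.8 CPM in woodrats, again highest in woodrat 1, and 11, 13.1 and 16.9 CPM in lab rats (FDR = 0.453). Gja4 (connexin 37, of arteries) was between 1.37 and 1.66 CPM in woodrats and between 2.73 and 3.47 CPM in lab rats, without overlap (log2 fold change -1.01, FDR = 0.0632). Gja3, Gja5 and Gjc3 did not reach the filter. Gja5 (connexin 40, also of arteries) was read 1, 2 and 6 times in woodrats, against 16, 5 and 5 times in lab rats. Gjc3 had 0, 2 and 3 reads in woodrats and none in any lab rat, and Gja3 had 1 read in woodrat 3 and none elsewhere.

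Panx1, whose pannexin forms channels to the outside of the cell, had 7.42, 10.3 and 14.2 CPM in woodrats and 2.98, 4.14 and 5.39 CPM in lab rats. All woodrats lay above all lab rats (log2 fold change 1.37, SE 0.39, FDR = 0.0230).

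None of the 5 adherens junction genes was past the threshold. Cdh1 (E-cadherin) had 6.84, 48.4 and 157 CPM in woodrats and 211, 211 and 74.7 CPM in lab rats. The woodrats spanned a 22.9-fold range, and woodrat 3 lay above lab rat 3 (log2 fold change -1.22, SE 0.87, FDR = 0.288). Cdh3 (P-cadherin, of the basal layer) had 7.42, 22.3 and 46.3 CPM in woodrats and 40.0, 44.8 and 37.6 CPM in lab rats. Woodrat 3 lay above all lab rats and the other woodrats below them (FDR = 0.336). The catenins, which every adhering cell type uses, were spread less than the cadherins among the woodrats. Ctnna1 (alpha-catenin) had 344, 275 and 286 CPM in woodrats and 203, 208 and 162 CPM in lab rats, without overlap (log2 fold change 0.66, FDR = 0.0607). Ctnnb1 (beta-catenin) had 168, 152 and 248 CPM in woodrats and 306, 323 and 240 CPM in lab rats, with overlap (log2 fold change -0.61, FDR = 0.115). Ctnnd1 (p120-catenin) had 74.6, 84.1 and 202 CPM in woodrats and 96.5, 102 and 25.4 CPM in lab rats (FDR = 0.346).

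**Figure D3:**
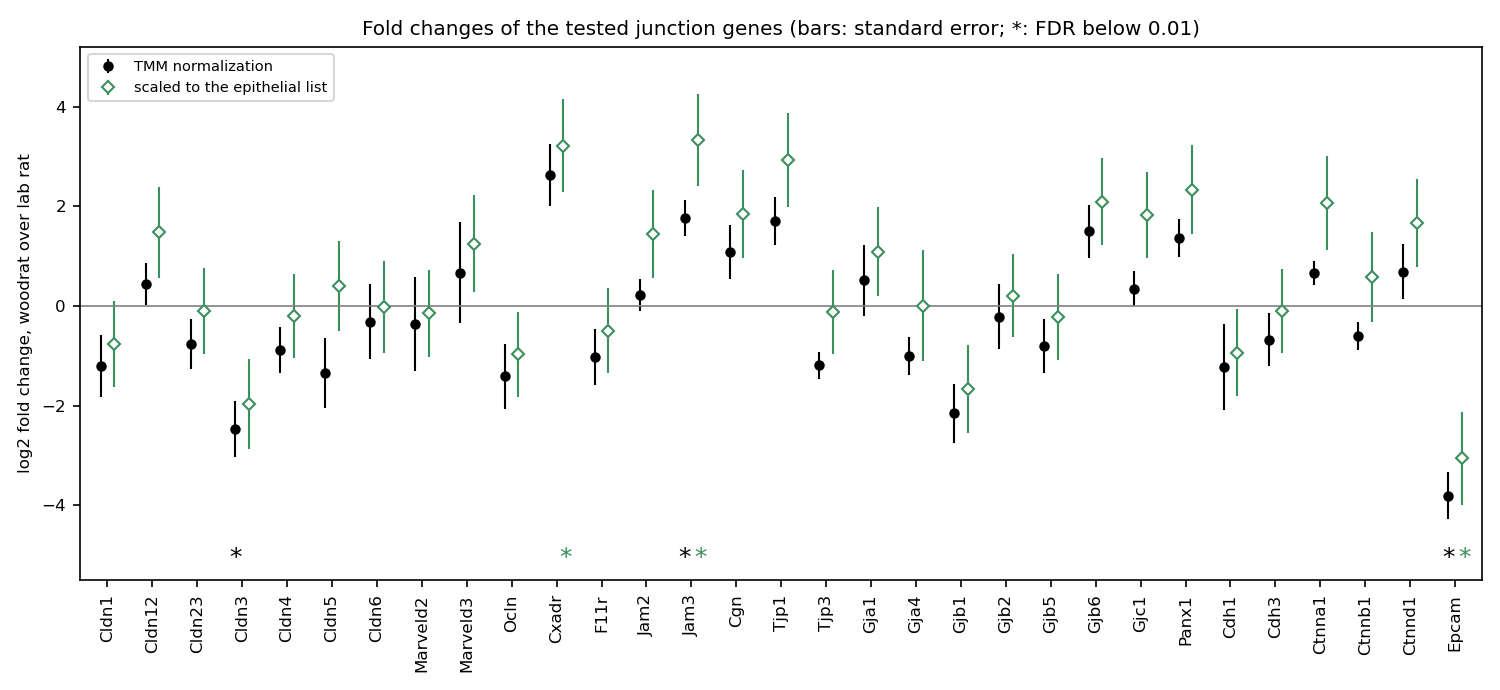
Log2 fold change (woodrat over lab rat) with its standard error for the 31 tested junction genes, with TMM normalization (filled circles) and scaled to the epithelial list (open diamonds); asterisks mark an FDR below 0.01. Under TMM 3 genes are marked (Cldn3, Jam3 and Epcam), and under the epithelial scaling 3 are (Cxadr, Jam3 and Epcam).

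Scaled to the epithelial list, 3 of the 31 junction genes passed the threshold (9.68%, against 13.9% of all tested genes): Epcam was lower in woodrats (as were 1.70% of all tested genes), and Jam3 and Cxadr were higher (12.2%). Jam3 had a log2 fold change of 3.32 (FDR = 0.00352), of which 1.24 is the shift of the median gene. The median log2 fold change of the junction genes was 0.21 and that of all tested genes 1.27. The species did not overlap for 17 of the 31 junction genes (54.8%, against 38.6% of all tested genes). In woodrats 11 of these were higher (35.5%, against 32.0%) and 6 lower (19.4%, against 6.59%). With TMM normalization 6 were higher (19.4%, against 28.8%) and 6 lower (19.4%, against 27.4%). Of the 2 scalings, only the epithelial one thus put the lower share above that of all tested genes. The 6 lower genes under the epithelial scaling were Cldn1, Cldn3, Epcam, F11r, Gjb1 and Ocln.

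The proportion of reads of 2 junction genes within an animal does not depend on the size given to a library. The following ratios were chosen after the values were seen and are descriptions. For every pair of the 29 tested junction genes with reads in all animals, the ratio was computed, and in 223 of the 406 pairs (54.9%) the 2 species did not overlap. Gjb6 had 2.81, 1.91 and 1.52 reads for each read of Gjb2 in woodrats and 0.53, 0.38 and 0.73 in lab rats. Gjb1 had 1.48, 1.23 and 1.08 reads for each read of Gjb2 in woodrats and 4.23, 3.15 and 6.53 in lab rats. Among the connexins, then, the woodrats had a larger proportion of Gjb6 and a smaller proportion of Gjb1 relative to Gjb2, and among the woodrats both ratios were highest in woodrat 1 and lowest in woodrat 3.

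Cldn3 had 0.10, 0.11 and 0.14 reads for each read of Cldn4 in woodrats and 0.31, 0.39 and 0.45 in lab rats. Epcam had 0.95, 1.58 and 0.82 reads for each read of Cldn4 in woodrats and 8.46, 7.32 and 8.44 in lab rats. For each read of Cdh1 it had 1.06, 0.52 and 0.16 in woodrats and 1.13, 1.24 and 4.37 in lab rats, so that woodrat 1 lay close to lab rat 1. Tjp1 had 8.73, 5.94 and 8.55 reads for each read of Tjp3 in woodrats and 1.45, 1.54 and 0.31 in lab rats. Each of these ratios separated the species, with every woodrat on the same side of every lab rat. The ratio of Cdh1 to Cdh3 was 0.92, 2.17 and 3.39 in woodrats and 5.27, 4.71 and 1.99 in lab rats and overlapped. Jam3 had 2.67, 0.44 and 0.16 reads for each read of F11r in woodrats, and 0.06, 0.05 and 0.08 in lab rats.

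**Figure D4:**
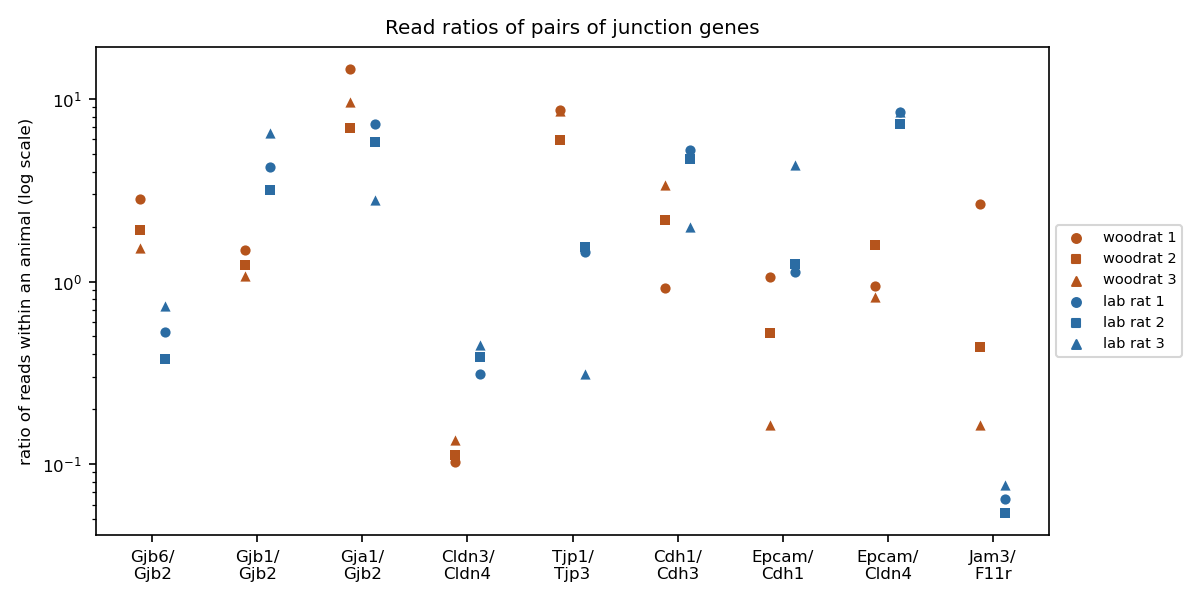
Ratio of the reads of 2 junction genes within each of the 6 animals (log axis), with 9 pairs along the horizontal axis; points are single animals. The species are apart without overlap for 7 of the 9 pairs, among them Gjb6/Gjb2 (1.52 to 2.81 in woodrats, 0.38 to 0.73 in lab rats), and overlap for Gja1/Gjb2 and Cdh1/Cdh3.

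Genes of simple, gland-forming epithelium were looked at because Epcam, Cldn3 and Gjb1 are typical of it. Of 18 markers of the glandular stomach, 12 were in the files. In lab rats 8 of them had no reads (Gast, Pgc, Tff2, Gkn1, Gkn2, Muc5ac, Muc6 and Ghrl), and the 12 genes summed to 52.6 to 68.0 CPM in lab rats and 8.74 to 21.1 CPM in woodrats. Because every counted gene has woodrat reads, a marker without reads could occur only on the lab rat side. A marker read in lab rats alone could not be among the 12, so these zeros do not compare the species. Krt20 and Lyz1 made up most of the lab rat sum. Krt20, a keratin of simple epithelia, had 16.5, 36.7 and 25.6 CPM in lab rats and at most 0.24 CPM in woodrats. Krt18, a keratin on the same list that did not reach the filter, went the other way in woodrat 1. It had 43, 3 and 9 reads in woodrats and 4, 2 and 4 in lab rats. Muc5ac had 12 to 33 reads in woodrats. Of the 4 tested markers, 1 was called higher and 1 lower in woodrats (50%, against 20.0% of all tested genes called in either direction). The leukocyte list, with 10 genes in the files, summed to 199 to 305 CPM in lab rats and 15.4 to 42.2 CPM in woodrats, with 4 of 6 tested genes called lower in woodrats (66.7%, against 9.71%). Cd74 made up most of the lab rat sum, with 225, 154 and 270 CPM. Cd68 had a log2 fold change of -0.09 (FDR = 0.899). Cd79a, which was not tested, had 5, 11 and 3 reads in woodrats and 2, 0 and 0 in lab rats. The list for glia, neurons and interstitial cells summed to 51.6 to 93.7 CPM in woodrats and 37.9 to 58.7 CPM in lab rats, with 1 of 9 tested genes called higher (11.1%, close to the 10.3% of all tested genes). The part of these cells in the junction values was not tested.

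Scaffold, polarity and tricellular genes that work with these junctions were looked at as a separate list. Of its 57 symbols, 44 were in the files and 42 were tested, and 16 of the 42 passed the threshold (38.1%, against 20.0% of all tested genes), 10 higher and 6 lower in woodrats. Their median log2 fold change was 0.32. Those higher in woodrats included several large scaffolds of the tight junction and its partners. Magi1, Magi2 and Magi3, membrane-associated scaffolds, had log2 fold changes of 1.87, 3.49 and 2.20. Mpdz (MUPP1), a scaffold with many PDZ domains that binds claudins, had one of 2.66, and Pard3b, a polarity protein, one of 2.62. Amot and Amotl1, angiomotins that bind the polarity complex, had 2.74 and 2.55. Vcl (vinculin) and Ctnna2 (an alpha-catenin), which link adhesion sites to actin, had 2.07 and 1.82. Of the 10 genes called higher, 8 (all but Ildr2 and Magi2) had their highest woodrat value in woodrat 1, as did 37.6% of all tested genes. Woodrat 1 had the highest smooth muscle sum and the lowest epithelial sum. The woodrats differed little for some of the 8, as for Magi3 (51.0, 39.4 and 46.9 CPM), and more for others, as for Pard3b (37.1, 27.6 and 15.3 CPM). Vinculin is also abundant in smooth muscle, and the part of muscle in the values of these genes was not tested.

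Among the angulins, proteins that sit where 3 cells meet, Lsr and Ildr2 had calls in opposite directions, and Ildr1 had at most 2 reads in any animal and was not tested. The woodrats had an Lsr (angulin-1) level of 5.49 ± 2.40 CPM (SD, n = 3), against 79.8 ± 21.0 CPM for the 3 lab rats, and the log2 fold change was -3.83 with a standard error of 0.39 (FDR = 0.00055 by the edgeR quasi-likelihood test). Ildr2 (angulin-3) was read 84, 167 and 78 times in woodrats and 6, 5 and 0 times in lab rats, with a log2 fold change of 4.82 (SE 0.69, FDR = 0.00162). Scaled to the epithelial list, Lsr remained lower in woodrats (log2 fold change -3.02, FDR = 0.00739). The other genes lower in woodrats were Ctnna3 (an alpha-catenin), Pvrl2 (nectin-2), Esam (an endothelial adhesion molecule), Ctnnbip1 (an inhibitor of beta-catenin) and Crb3 (a polarity protein of the apical membrane), with log2 fold changes from -2.47 to -1.47. Under the epithelial scaling 13 of the 42 were called, 12 higher and 1 lower (28.6% and 2.38%, against 12.2% and 1.70% of all tested genes). Without woodrat 1 and lab rat 3 together 9 were called, 7 higher and 2 lower (16.7% and 4.76%, against 6.78% and 6.69%).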

How the data were processed

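Read pairs were cleaned with Trimmomatic and joined with FLASH where they overlapped, and the resulting reads were compared by cross_match with the coding transcripts of the mouse (GENCODE M7). After dropping a list of genes prone to ambiguous matches, the authors deposited raw counts, 1 value per mouse gene and animal, for reads with a unique best gene. The labels name mm9 as the build. How far each species' reads diverge from the mouse sequence, and how reads of similar claudins or connexins were divided, can change a count. The study examined the divergence of the alignments and multiply aligned reads. Neither was examined here. Versions are not given in the sources used here, and no gene lengths were used, so levels are not compared between genes.

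The files were combined in Python 3.11.15 (pandas 2.3.3) and fitted in R 4.3.3 with edgeR 4.0.16. The 12603 genes that reached 1 CPM in 3 or more animals entered the fit. It used TMM factors, the older form of the quasi-likelihood F-test, species without any covariate and a prior count of 0.125. P-values were adjusted over all 12603 genes by Benjamini-Hochberg, and an FDR below 0.01 was the threshold, as in the study. All FDR values in the text come from this test unless DESeq2 is named. The standard error is the size of the log2 fold change divided by the square root of F. CPM values are TMM-normalized. The script was checked on simulated counts.

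Total counts ranged from 5439642 to 7932637. No pair of animals of a species agreed within sampling noise (chi-square per degree of freedom from 10.1 to 121). The labels do not say whether animals were independent beyond being separate samples.

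The junction genes and lists were chosen with earlier results of these data known. A few genes that meet the rule are not reported here and are left out of the counts of junction genes, but stayed in the fit. Values are given for every animal for genes past the threshold and for Cldn1, Cldn4, Ocln, Tjp1, Gja1, Gjb2, Gjb6, Cdh1, Cdh3, Ctnnb1, F11r, Panx1 and Epcam. Other junction genes given per animal were chosen after their values were seen. Scaffold genes are named if past the threshold. The lists were the epithelial, smooth muscle, endothelial, glandular stomach, glia and neuron, leukocyte, and scaffold and polarity genes. The alternatives were other filters, scalings (DESeq2's size factors, library totals, the epithelial list), edgeR's later method, DESeq2 1.42.0, a block for the labels' replicate number, a larger prior count (2), a looser FDR (0.05) and fits that omitted an animal but kept the tested genes. Leaving out woodrat 1 and lab rat 3 together was chosen after seeing the data.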

Additional observations from a re-analysis of the deposited data

How the results depend on the processing

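The count of 3 junction genes past an FDR of 0.01 moved to 8 under DESeq2 (25.8%, against 31.1% of all tested genes). It was also 8 at an FDR below 0.05 (25.8%, against 39.9%), and 1 with the replicate block (3.23%, against 5.68%). Omitting single animals gave between 1 and 6, where between 7.13% and 20.8% of all tested genes were called. The count of 16 scaffold and polarity genes moved to 6 with the replicate block (14.3%, against 5.68%). It was 9 without woodrat 1 and lab rat 3 (21.4%, against 13.5%). With each animal left out it lay between 7 and 16 (16.7% to 38.1%, against 7.13% to 20.8%). The fits that leave some animals out have fewer animals, and the cause of these moves was not tested. The labels do not say that equal replicate numbers pair the animals. Same-numbered animals deviated from their species means with correlations of -0.29, -0.09 and -0.28 across genes. Since epithelial content also differs between animals, these correlations cannot exclude a pairing, and the block is given here only.

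Signs changed only for genes with no call. Under the epithelial scaling the log2 fold changes became 0.40 for Cldn5, 0.58 for Ctnnb1, 0.0051 for Gja4 and 0.21 for Gjb2. All of these lay below the median of all tested genes under that scaling, 1.27. Without woodrat 1 and lab rat 3 they became 0.18 for Cldn6 and 0.075 for Gjb2. The fits that omitted single animals gave from -1.56 to 0.16 for Cldn6, from -0.69 to 0.94 for Gja1, from -1.30 to 0.26 for Gjb2 and from -2.06 to 0.15 for Marveld2. Genes with few reads, such as Marveld3 with at most 9 in any animal, have wide counting error.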
